A study of Mus musculus with 4 samples.

Results

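The genes described here are 10 hepatic transporters, 6 that carry organic anions into the cell (Slco1b2, Slco1a4, Slco1a1, Slco2b1, Slco2a1 and Slc22a7) and 4 ATP-driven pumps that export their substrates (Abcc2, Abcg5, Abcg8 and Abcc3). They were chosen by gene name rather than by their values, though with earlier results of these data known. All 10 were listed among the 8797 genes of each mouse. A B6-allele frequency was given in every mouse for 8 of them, among 3632 genes in all, and not for Slco1a4 and Slco2b1.

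The mice were 4 female F1 hybrids between the inbred strains C57BL/6J (B6) and MSM/Ms (MSM), which are derived from different subspecies. In 2 mice the mother was MSM and the father B6 (MSM/B6), and in the other 2 the mother was B6 and the father MSM (B6/MSM). Poly(A) RNA of whole liver was sequenced at 5 months of age, with no treatment named in the labels, and the libraries of each cross are described as biological replicates. The values are FPKM, which are mapped fragments scaled to transcript length and library size, and the B6-allele frequency, the B6 share of the reads that could be assigned to an allele. Numbers of reads are not in the files, so the depth of a single FPKM or frequency is unknown.

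Hepatocytes take up bile acids, bilirubin, steroid conjugates and drugs from sinusoidal blood through carriers of the Slco and Slc22 families, which need no ATP of their own. They return them, often after conjugation, to bile across the canalicular membrane or to blood across the basolateral membrane through pumps of the ABC superfamily. In an F1 liver both alleles of a gene share the same cellular environment, so a difference between them within a nucleus is usually assigned to sequence or chromatin near the gene. In bulk tissue, fewer cells of a type and less RNA per cell cannot be told apart.

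Hepatocyte markers were far above those of other cell types, with a summed FPKM of 12184 to 17366 over the mice for the 5 of 6 listed genes, against 134 to 166 for 5 sinusoidal endothelial genes, 95.3 to 133 for 3 Kupffer cell genes, 90.6 to 128 for 3 stellate cell genes and 9.51 to 14.6 for Spp1, the 1 cholangiocyte gene of 5 that was listed. No kidney marker of 4 was listed, and the 1 listed pancreas marker of 4 had an FPKM of 10.6 to 13.5. The FPKM summed over all genes ranged from 529024 to 671875, and was highest in replicate 1 of MSM/B6. Frequencies depended on where a gene lies. Of 3929 genes beyond 100 Mb on chromosomes 1 to 15 and X, or beyond 10 Mb on chromosomes 16 to 19, 89.8% had a frequency, and the median difference between the highest and lowest mouse was 0.0592. Of 4849 genes below these coordinates 1.98% had one, and that median was 0.646. Among the transporters with a frequency, only Abcc3 lay below.

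Sequence at or before the start sites is shown in 3 stretches, for the divergent pair Abcg5 and Abcg8 and for the neighbours Slco1b2 and Slco1a1. The sequences are those of the B6-derived reference in RefSeq (GRCm38.p6). MSM sequence was not used here. Start-site windows of 8 of the 10 genes were matched. Abcc3 and Slc22a7 were not matched. Positions count from the first transcribed base, with the base before it as -1. Capitals mark matches, on either strand, to 4 motifs, the TATA box (TATAAA), the GATA box (AGATAA), an HNF4 core (CAAAGT) and an LRH-1 site (CAAGGTCA). No 2 of these letter strings overlap in the stretches shown. HNF4 is a hepatocyte factor and LRH-1 is a nuclear receptor of sterol and bile acid metabolism. The first stretch, chr17:84682992-84683141 on the minus strand, runs from -130 to 20 of Abcg5 and also holds the start of Abcg8, which is read the other way. The second, chr6:141629268-141629517 on the plus strand, and the third, chr6:141946963-141947212 on the minus strand, hold the 250 bases before Slco1b2 and Slco1a1.
Abcg5: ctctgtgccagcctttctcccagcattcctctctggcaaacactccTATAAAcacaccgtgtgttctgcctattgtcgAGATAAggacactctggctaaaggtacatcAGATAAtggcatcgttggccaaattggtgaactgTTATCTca
Slco1b2: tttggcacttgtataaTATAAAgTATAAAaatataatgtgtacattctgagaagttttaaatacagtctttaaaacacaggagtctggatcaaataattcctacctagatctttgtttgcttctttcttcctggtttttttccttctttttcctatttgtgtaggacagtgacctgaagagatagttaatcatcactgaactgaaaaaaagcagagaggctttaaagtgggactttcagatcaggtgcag
Slco1a1: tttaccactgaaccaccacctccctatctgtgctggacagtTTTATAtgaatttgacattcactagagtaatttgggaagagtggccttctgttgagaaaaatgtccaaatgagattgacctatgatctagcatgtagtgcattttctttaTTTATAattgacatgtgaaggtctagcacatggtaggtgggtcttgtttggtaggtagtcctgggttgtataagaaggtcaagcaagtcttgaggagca

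The start site of Abcg5 (84683011) and the nearer of the start sites of Abcg8 (84683121) are 110 bases apart. Abcg8 has another annotated start at 84676302, within Abcg5 and 6.71 kb from its start, and which of them was used in these livers cannot be read from the files. The stretch between and around them held 3 GATA boxes, at -52 to -47, -22 to -17 and 13 to 18 of Abcg5, and a TATA box at -84 to -79. A GATA box was found in 11.2% of all 32851 windows of 300 bases, and 3 or more in 0.107% of them (35 windows, those of Abcg5 and Abcg8 included). The cut of 3 equals the count in the Abcg5 window, and the overlapping Abcg8 window holds the same boxes. The share of 0.107% is therefore a description and not a test. The Slco1b2 stretch held TATA boxes at -234 to -229 and -227 to -222. The Slco1a1 stretch held TATA boxes on the opposite strand at -209 to -204 and -99 to -94. Outside the stretches shown, the Slco2a1 window held a TATA box at -29 to -24 and the Abcc2 window an HNF4 core at -79 to -74. A TATA box was found in 13.6% of all windows and an HNF4 core in 14.35%. These are matches of letters, not measured binding sites.

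Slco1b2 was by far the most expressed of the transporters. It encodes OATP1B2, the mouse counterpart of the human OATP1B carriers of bilirubin, bile acids and statins, and lies at chr6:141629518-141686646 (mm10, GENCODE M21). Its FPKM was 624 and 466 in replicates 1 and 2 of MSM/B6 and 448 and 459 in those of B6/MSM, or 499 ± 83.7 (SD, n = 4). It was the first of the 10 genes in every mouse, 184 of the 8797 genes had a higher mean, and it made up 55.1% of the summed FPKM of the 10 genes. The MSM/B6 mice were both above the B6/MSM mice, with replicate 1 of MSM/B6 standing highest.

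Slco1a4 (chr6:141805440-141856199) and Slco1a1 (chr6:141907282-141946962) lie in the same cluster, on the opposite strand to Slco1b2. Slco1a4 encodes OATP1A4, a carrier of bile acids, cardiac glycosides and steroid conjugates that is known to be higher in female than in male mouse liver. Its FPKM was 21.4 and 36.1 in MSM/B6 and 33.0 and 35.5 in B6/MSM (31.5 ± 6.85, SD, n = 4), and replicate 1 of MSM/B6 was apart from the other mice on the low side. The mean of Slco1b2 was 15.8 times that of Slco1a4.

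Slco1a1 differed between mice more than any other of the transporters, and the difference lay within both crosses. It encodes OATP1A1, a carrier of steroid sulfates and bile acids known to be higher in male than in female mouse liver. Its FPKM was 34.2 and 9.28 in replicates 1 and 2 of MSM/B6 and 39.8 and 11.8 in replicates 1 and 2 of B6/MSM (23.8 ± 15.5, SD, n = 4). The mice of MSM/B6 thus differed 3.68-fold and those of B6/MSM 3.36-fold, and the crosses overlapped. The highest mouse was 4.28 times the lowest, against a median of 1.29 over the 8764 genes above 0 in every mouse, of which 61 had a larger ratio. The ratio of Slco1a1 to Slco1a4 was 1.60 and 0.257 in MSM/B6 and 1.21 and 0.333 in B6/MSM, so which of the 2 genes was higher changed within each cross. Of the Slco1a1 transcript, 2.26% of stretches of 50 bases also occur in another gene, nearly all of them in Slco1a4. Reads from such stretches could be placed at either gene.

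One of the erythrocyte markers, Hba-a1, was high in the same mice as Slco1a1, and another, Hbb-bs, was not. All 3 genes of that list were listed, and their summed FPKM was 133 and 45.2 in MSM/B6 and 159 and 51.4 in B6/MSM. Most of it came from Hba-a1, an alpha globin gene, with 124 and 36.0 in MSM/B6 and 136 and 23.6 in B6/MSM. Hbb-bs, a beta globin gene, had 2.13 and 3.02 in MSM/B6 and 14.3 and 23.1 in B6/MSM, so it was lower in the mouse with high Slco1a1 within both crosses. Alas2, the erythroid enzyme of haem synthesis, had 6.63 and 6.21 in MSM/B6 and 8.69 and 4.67 in B6/MSM. The part of blood RNA, or of whatever else differed between these mice, in the levels of Slco1a1 was not tested.

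**Figure D1:**
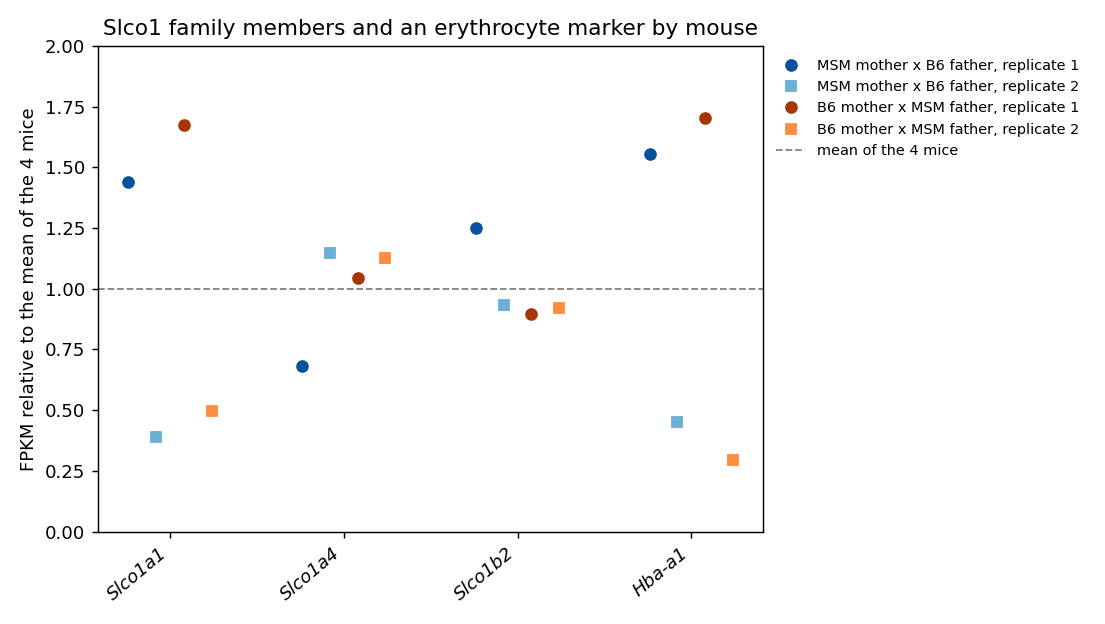
FPKM of Slco1a1, Slco1a4, Slco1b2 and the alpha globin gene Hba-a1 in each of the 4 mice (points), relative to the mean of the 4 mice for that gene (dashed line). Slco1a1 and Hba-a1 lie above their means in replicate 1 of both crosses and below in replicate 2, whereas Slco1a4 and Slco1b2 do not show this order. Of the erythrocyte markers not shown, Hbb-bs was lower in replicate 1 than in replicate 2 of both crosses, and Alas2 was higher.

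The other uptake carriers were steadier than Slco1a1. Slco2b1, which encodes OATP2B1, a carrier of estrone sulfate and many drugs (chr7:99657804-99711340), had an FPKM of 46.0 and 53.3 in MSM/B6 and 57.3 and 55.1 in B6/MSM, so both B6/MSM mice were above both MSM/B6 mice. Slco2a1, the prostaglandin transporter, known from endothelial cells as well as epithelia (chr9:102988712-103096002), had 18.7 and 18.4 in MSM/B6 and 28.8 and 20.7 in B6/MSM. It was lower in both MSM/B6 mice, and its B6/MSM mean rested mainly on replicate 1. Slc22a7, or OAT2, which carries organic anions and nucleotide derivatives (chr17:46432183-46438457), was the steadiest of the 10, at 24.2 and 22.5 in MSM/B6 and 22.8 and 23.9 in B6/MSM. Its highest mouse was 1.08 times the lowest, and 8446 of the 8764 genes had a larger ratio.

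Of the pumps, Abcc3 and Abcc2 were highest. Abcc3, or MRP3, which returns glucuronides and bile acids to blood across the basolateral membrane (chr11:94343295-94392997), had an FPKM of 78.7 and 98.9 in MSM/B6 and 107 and 100.3 in B6/MSM, with the B6/MSM mice above the others. Abcc2, or MRP2, the canalicular pump of bilirubin glucuronides and glutathione conjugates (chr19:43782192-43840740), had 59.6 and 82.5 in MSM/B6 and 70.0 and 80.4 in B6/MSM, and its crosses overlapped. Abcg5 (chr17:84658234-84683011) and Abcg8 (chr17:84676302-84700333) encode the subunits of the canalicular sterol pump, which is active only as the pair. Abcg5 had 37.1 and 41.8 in MSM/B6 and 37.9 and 50.5 in B6/MSM, and Abcg8 had 33.4 and 46.7 in MSM/B6 and 39.3 and 50.7 in B6/MSM. The ratio of Abcg5 to Abcg8 stayed between 0.894 and 1.11 over the mice, and both were highest in replicate 2 of B6/MSM and lowest in replicate 1 of MSM/B6.

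Ordered by mean FPKM, the transporters were Slco1b2 (499), Abcc3 (96.2), Abcc2 (73.1), Slco2b1 (52.9), Abcg8 (42.5), Abcg5 (41.8), Slco1a4 (31.5), Slco1a1 (23.8), Slc22a7 (23.4) and Slco2a1 (21.7). The ranges of neighbours in this order did not overlap for Slco1b2 and Abcc3, for Abcc2 and Slco2b1, and for Abcg5 and Slco1a4. The higher gene was the higher one in all 4 mice for these and for Abcc3 over Abcc2 and Slco2b1 over Abcg8, with p = 0.13 in each case by the two-sided exact sign-flip permutation test, the smallest p that 4 mice allow. Abcg8 and Abcg5, Slco1a4 and Slco1a1, Slco1a1 and Slc22a7, and Slc22a7 and Slco2a1 were not ordered the same way in every mouse, with exact sign-flip permutation p of 0.625, 0.5, 0.75 and 0.5. The rank of Slco1a1 among the 10 was 6 and 5 in replicate 1 of MSM/B6 and of B6/MSM and 10 in replicate 2 of both. Without replicate 1 of either cross its mean was 20.3 or 18.4, below that of Slc22a7.

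**Figure D2:**
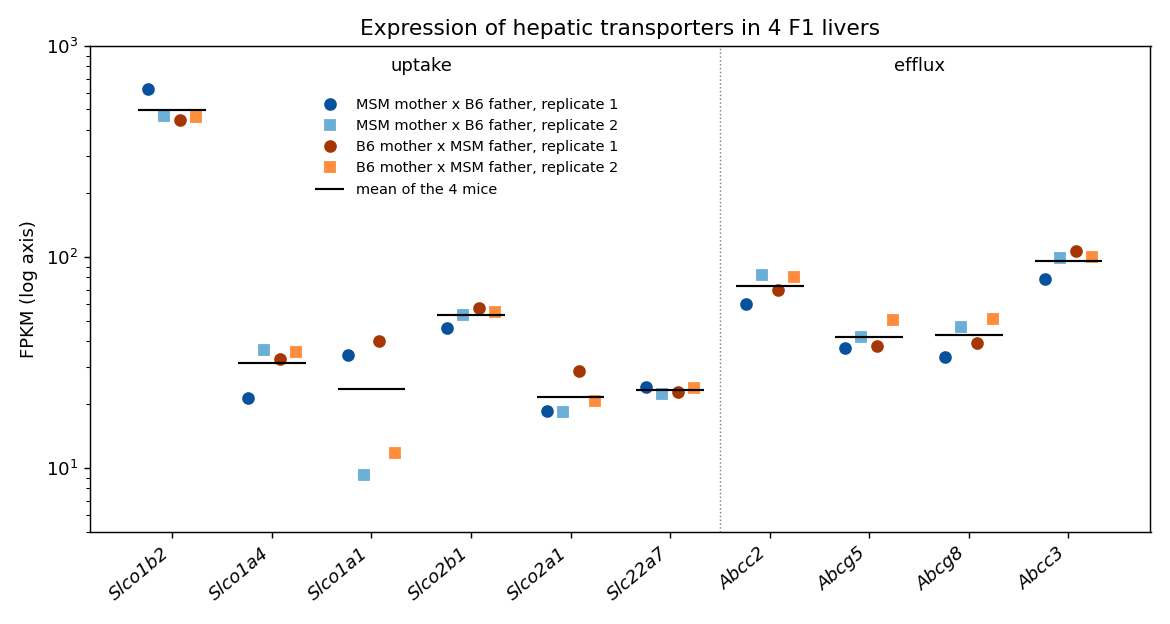
FPKM of the 10 transporters (log axis) in each of the 4 mice (points, colored by cross and shaped by replicate) with the mean of the 4 mice (lines), uptake carriers on the left and efflux pumps on the right. Slco1b2 lies between 448 and 624, all others between 9.28 and 107, and Slco1a1 spreads most.

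Expression between the reciprocal crosses asks whether the direction of the cross, and with it the mother's strain, goes with a different level. No transporter was called by limma on log2(FPKM + 1) at an adjusted p of 0.05, where 0.0455% of the 8797 genes were called, and none had an unadjusted p under 0.05. Differences, as MSM/B6 minus B6/MSM, ran up to 0.38 in size. Their sign could change when a mouse was left out for Slco1a1, Slco1a4, Slc22a7, Abcc2, Abcg5 and Abcg8. The largest was that of Slco2a1, -0.38 ± 0.17 (SE, limma adjusted p = 0.579). The difference of Slco1b2 was positive, at 0.25 ± 0.20 (SE, limma adjusted p = 0.693). The SE of Slco1a1, 0.72 around a difference of -0.27, was the widest. The FPKM of the crosses did not overlap for Slco1b2, Slco2b1, Slco2a1 and Abcc3, or 4 of the 10, while 42.4% of all genes did not overlap, so such a count is near the background. With 2 mice against 2, an exact permutation test cannot give a p below 0.333.

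**Figure D3:**
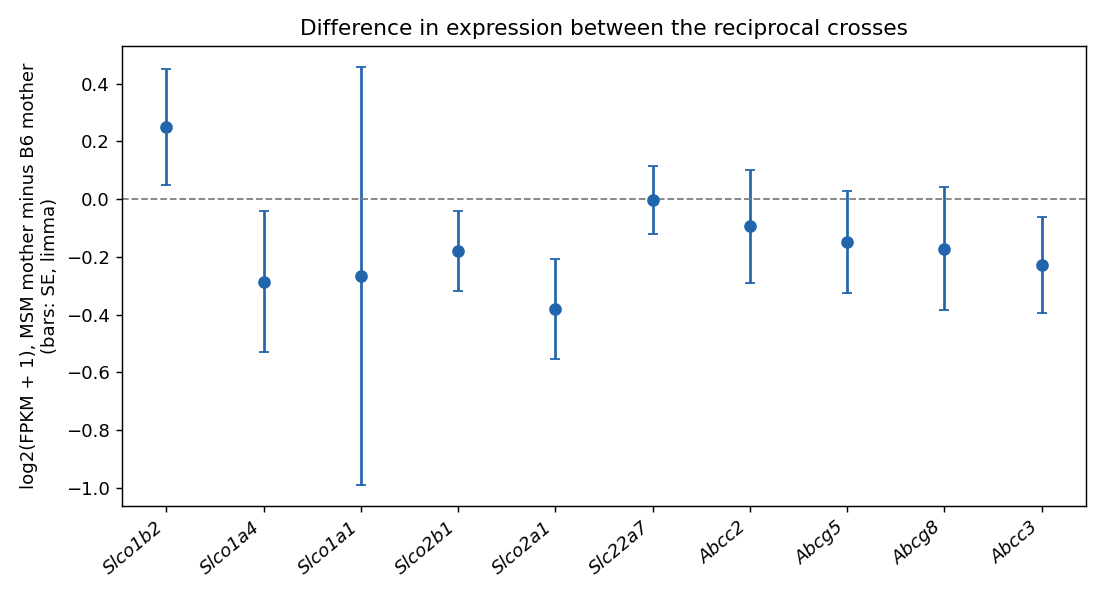
Difference in log2(FPKM + 1) between MSM/B6 and B6/MSM mice for the 10 transporters (points) with its standard error from limma (bars) and no difference as a dashed line. The differences lie between -0.38 for Slco2a1 and 0.25 for Slco1b2, and the bars of Slco1a1 are the widest.

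B6-allele frequencies showed unequal use of the alleles for 5 of the 8 transporters. The frequencies were turned into log2 odds, which are 0 at equal use of the alleles and positive where B6 prevails, and tested by limma in 1 model of all 4 mice. In it, 3 were called toward B6 (Slco1a1, Slc22a7 and Abcg5) and 2 toward MSM (Slco2a1 and Abcg8). Over all 3632 genes 36.2% were called, 22.6% toward B6 and 13.6% toward MSM. The median of the mean frequencies of these 3632 genes was 0.510, slightly toward B6. With 8 genes, a share of 62.5% rests on few calls, and the median of the absolute log2 odds was 0.32 over the 8 transporters and 0.24 over all genes. Over the called genes it was 0.47 for the 5 transporters and 0.55 for all.

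Slco1a1 was the most skewed, with a B6-allele frequency of 0.653 and 0.638 in MSM/B6 and 0.596 and 0.711 in B6/MSM. All 4 mice were above 0.5 and the crosses overlapped. The log2 odds were 0.90 ± 0.15 (SE, limma adjusted p = 0.0261). The frequencies were not ordered as the levels were, since the mice with low Slco1a1 were at 0.638 and 0.711 and those with high Slco1a1 at 0.653 and 0.596. Slco1b2, 221 kb away in the same cluster, was near equality in every mouse, at 0.498 and 0.487 in MSM/B6 and 0.490 and 0.494 in B6/MSM. Its log2 odds were -0.05 ± 0.04 (SE, limma adjusted p = 0.453). Within a mouse, the log2 odds of Slco1a1 exceeded those of Slco1b2 by 0.93 and 0.89 in MSM/B6 and by 0.62 and 1.34 in B6/MSM, or 0.94 ± 0.29 on average (SD, n = 4). The higher gene was Slco1a1 in all 4 mice, which gives the smallest possible exact sign-flip permutation p of 0.13.

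Abcg5 and Abcg8, the divergent neighbours, leaned to opposite alleles. The frequency of Abcg5 was 0.565 and 0.532 in MSM/B6 and 0.571 and 0.552 in B6/MSM, above 0.5 in all 4 mice. That of Abcg8 was 0.446 and 0.453 in MSM/B6 and 0.464 and 0.470 in B6/MSM, below 0.5 in all 4. The log2 odds were 0.32 ± 0.06 (SE, limma adjusted p = 0.0328) for Abcg5 and -0.24 ± 0.04 (SE, limma adjusted p = 0.0282) for Abcg8. Within a mouse, Abcg5 exceeded Abcg8 by 0.69 and 0.46 in MSM/B6 and by 0.62 and 0.47 in B6/MSM, a mean of 0.56 ± 0.11 (SD, n = 4), with the same sign in all 4 mice (exact sign-flip permutation p = 0.13, the smallest possible). The annotated exons of the pair share 82 bases on opposite strands. The libraries were directional, and the strand setting of the read counting is not given in the sources used here, so reads from these bases may have been counted for either gene. Lrpprc, a mitochondrial RNA-binding protein gene 4.91 kb from Abcg8, had a frequency of 0.566 ± 0.0170 (SD, n = 4) and was called toward B6, as Abcg5 was.

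Slc22a7 was called toward B6 and Slco2a1 toward MSM. The frequency of Slc22a7 was 0.584 and 0.597 in MSM/B6 and 0.587 and 0.554 in B6/MSM. Its log2 odds were 0.47 ± 0.06 (SE, limma adjusted p = 0.0151). Of 14 genes within 250 kb with a frequency, 2 were called toward B6 (Dnph1 and Yipf3) and 1 toward MSM (Rrp36). Among all genes with a frequency, 36.2% were called in either direction, so called neighbours are not particular to this locus. Dnph1, a nucleotide hydrolase gene 58.3 kb away, had the strongest skew of them at 0.683 ± 0.0315 (SD, n = 4), and Zfp318, the nearest at 11.3 kb, was at 0.503 ± 0.0166 (SD, n = 4). The frequency of Slco2a1 was 0.423 and 0.421 in MSM/B6 and 0.415 and 0.407 in B6/MSM. Its log2 odds were -0.49 ± 0.04 (SE, limma adjusted p = 0.00821), the smallest adjusted p of the 8 transporters. Of its 3 neighbours, 1300017J02Rik was called toward MSM at 0.458 ± 0.0108 (SD, n = 4), and Ryk and Srprb were not called, at 0.542 and 0.493.

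Abcc2 was close to equality and was not called. Its frequency was 0.478 and 0.490 in MSM/B6 and 0.479 and 0.494 in B6/MSM, below 0.5 in all 4 mice. Its log2 odds were -0.08 ± 0.05 (SE, limma adjusted p = 0.238). Of 9 genes within 250 kb with a frequency, 1 was called toward B6, Dnmbp at 0.583, and 3 toward MSM, Cyp2c44 at 0.365, Cpn1 at 0.425 and Gm10768 at 0.443. Among all genes with a frequency, 22.6% were called toward B6 and 13.6% toward MSM, so these few calls do not set the locus apart. Gm10768 lies on the same strand in RefSeq, and 1938 of its 2043 bases are annotated as Abcc2 exon in GENCODE, so reads from these bases may have been counted for either of the listed genes. The mean frequency was 0.443 for Gm10768 and 0.485 for Abcc2, both over 4 mice.

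**Figure D4:**
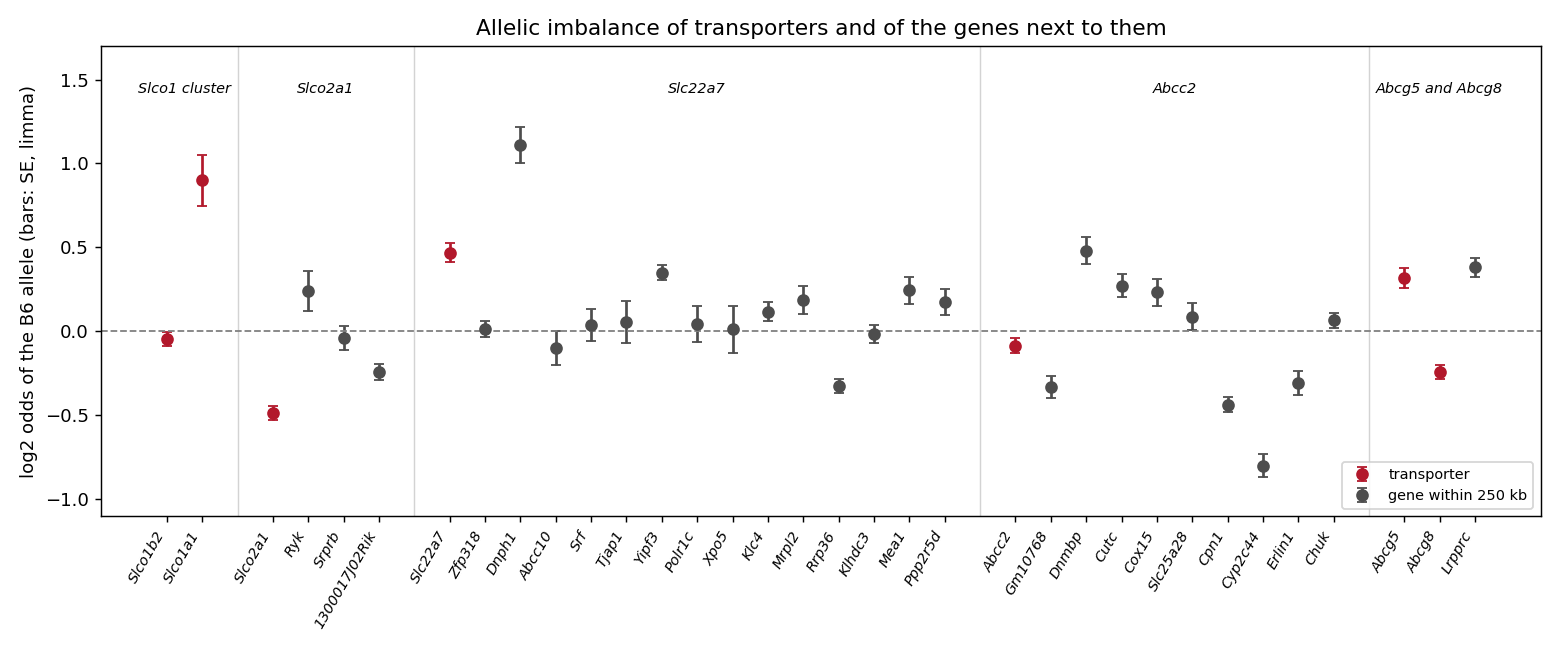
Log2 odds of the B6 allele (points) with their standard errors from limma (bars) for 7 transporters (red) and the genes within 250 kb that have a frequency (grey), grouped by locus and ordered by distance within the Slco2a1, Slc22a7 and Abcc2 loci. Values above the dashed line lean to B6. Slco1a1 is at 0.90 beside Slco1b2 at -0.05, and Abcg5 and Abcg8 lie on opposite sides of 0.

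The frequency of Abcc3 differed too widely between mice to give a direction. It was listed as 0 and 1 in MSM/B6 and 0.714 and 0.5 in B6/MSM, which covers the whole scale within a single cross, and its log2 odds were 0.33 ± 2.58 (SE, limma adjusted p = 0.930). Abcc3 lay below the coordinate limits, where the median difference between the highest and lowest mouse was 0.646. Its FPKM was the second highest of the 10. The cause of the scatter was not tested. By the fixed thresholds of the study's methods, a mean frequency of 0.8 or more or of 0.2 or less, none of the 8 transporters was allele-biased, where 3.19% of the 3632 genes were. The means of the 7 transporters beyond the coordinate limits lay between 0.416 for Slco2a1 and 0.650 for Slco1a1.

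**Figure D5:**
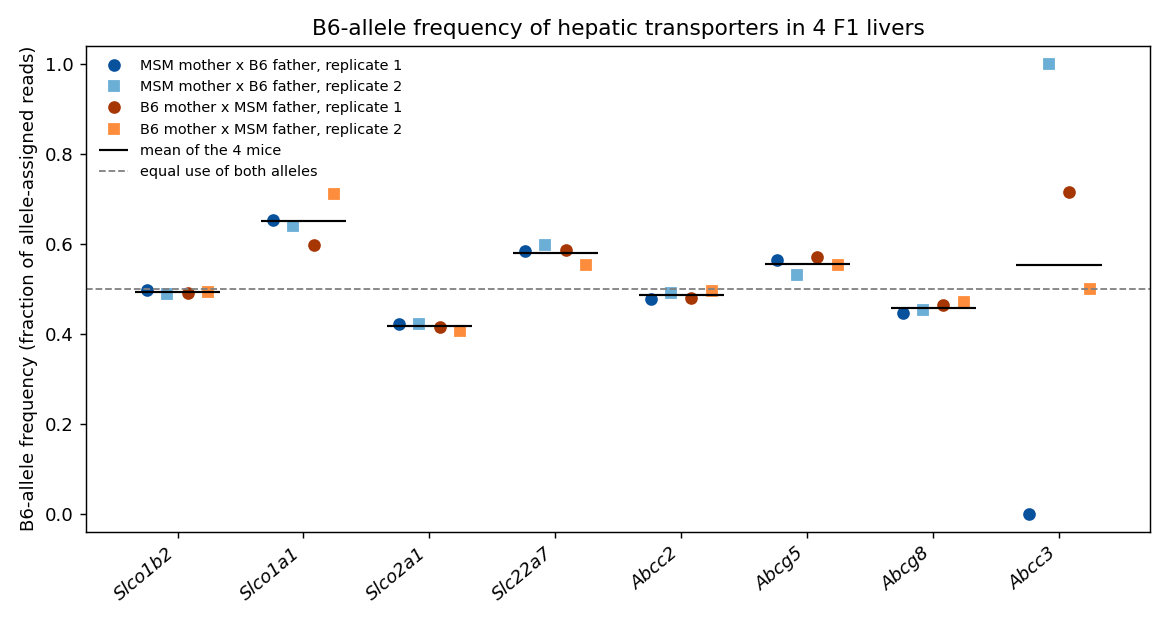
B6-allele frequency of the 8 transporters that have one, in each of the 4 mice (points), with the mean of the mice (lines) and equal use of the alleles (dashed line). Slco1a1, Slc22a7 and Abcg5 lie above 0.5 and Slco2a1 and Abcg8 below in all 4 mice, and Abcc3 spreads from 0 to 1.

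Between the crosses, no transporter differed in allele frequency by limma, where 0.0826% of all genes were called. The adjusted p ran from 0.905 to 1, and none had an unadjusted p under 0.05. The frequencies of the crosses did not overlap for Slco2a1 and Abcg8, 2 of the 8, against 34.3% of all genes. For Slco2a1 the means were 0.422 in MSM/B6 and 0.411 in B6/MSM, and for Abcg8 0.449 and 0.467. Calls of allelic imbalance depended on having all 4 mice. Without any 1 of them, at most 1 of the 5 called transporters stayed called (Slco1a1, without replicate 1 of B6/MSM), while the direction of all 5 stayed the same, and Abcg5 was no longer called when each mouse was centred on its own median (limma adjusted p = 0.0527).

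Other genes of the same pathway were described in the same way. Of 63 genes in 5 lists, 47 were listed and 13 had a frequency, of which 2 were called toward B6, 2 toward MSM and 9 were not called. These counts stand beside the 36.2% of all genes that were called, 22.6% toward B6 and 13.6% toward MSM. Among other uptake carriers, 12 were listed and 4 had a frequency. Slc16a1, the lactate carrier MCT1, was called toward MSM at 0.457 ± 0.0234 (SD, n = 4). Slc10a1, or NTCP, the main sodium-dependent bile acid carrier, had the highest mean FPKM of the list at 470, close to that of Slco1b2, and its frequency of 0.758 ± 0.380 (SD, n = 4) came from the region of scattered values. Slc2a2, or GLUT2, the hepatic glucose carrier, had a mean FPKM of 182 and a frequency of 0.604 ± 0.315 (SD, n = 4) from the same region, which was not called.

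Among other canalicular pumps, 7 were listed and 3 had a frequency. Atp8b1, the phospholipid flippase of the canalicular membrane, was called toward MSM at 0.433 ± 0.0167 (SD, n = 4). Abcb11, the bile salt export pump, had a mean FPKM of 185 and no frequency, and Abcb4, the phosphatidylcholine floppase, had 83.3 and a scattered frequency of 0.13 ± 0.25 (SD, n = 4) that was not called. Of other basolateral pumps 2 were listed, Abcc6 at a mean FPKM of 70.0 and Abca1, which loads cholesterol onto HDL, at 22.7, and neither had a frequency. All 14 of the nuclear receptors and factors were listed, and 3 had a frequency. Hnf4a, a master regulator of the hepatocyte (mean FPKM 172), was called toward B6 at 0.542 ± 0.00917 (SD, n = 4). It was no longer called when each mouse was centred on its own median (limma adjusted p = 0.0555). Nr1i3, the xenobiotic receptor CAR, had a mean FPKM of 120 and no frequency.

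Of the scaffold and trafficking proteins all 12 were listed and 3 had a frequency. Slc9a3r1, or NHERF1, a PDZ scaffold that binds canalicular transporters (mean FPKM 105), was called toward B6 at 0.581 ± 0.00745 (SD, n = 4). Gnb2l1, or RACK1, had the highest mean FPKM of that list, at 232, and no frequency. None of the 47 genes was called between the crosses in expression. An unadjusted limma p under 0.05 was found for 4 of them, but the share of all genes under that level was not counted, so the 4 cannot be read as an excess. None of the 13 was called between the crosses in allele frequency.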

How the data were processed

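Liver mRNA of 4 female F1 mice was analyzed, 2 per reciprocal cross, with the cross and the replicate number taken from the labels. The deposited FPKM, 1 value per gene and mouse, come from reads that the authors trimmed (Trim Galore!) and aligned (Tophat2, 1 alignment per read) to an mm10 genome in which SNP sites were masked. The deposited fraction is the B6-allele frequency, for which the authors separated reads by allele with SNPsplit and counted them with Cuffdiff. Versions of these tools are not given in the sources used here. A read shared by near-identical genes is placed at 1 of them.

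The transporters and the 5 gene lists were chosen with earlier results of these data known. Some genes of the lists are not reported here and are left out of the lists' counts, though not out of the fits. The text names all transporters, genes within 250 kb of them that have a frequency (those that were called, and the nearest or others as examples), and, per list, the called genes and the 2 with the highest mean FPKM. Frequencies were limited to 0.01 to 0.99, turned into log2 odds and tested against 0 with limma 3.58.1 in R 4.3.3, and the crosses were compared in the same model. Expression was tested with limma, with a variance trend, on log2(FPKM + 1), a scale that understates changes of low genes, where the mean FPKM reached 1. P-values were two-sided and adjusted by Benjamini-Hochberg over all genes tested, with calls at 0.05. Mice of a cross are replicates of each other and no batch is named in the labels. Precision comes from the spread between mice, since the files give no read counts. In simulated data where 200 genes were changed, the test of imbalance (3632 genes, log2 odds of 2) called 191 of them and 12 others, the test of the crosses on log2 odds (3632 genes, difference of 6) 193 and 7, and the expression test (8797 genes, log2 change of 2) 184 and 9. These planted changes were larger than those of the transporters, which reached 0.90, 0.66 and 0.38 in size in the 3 tests. The simulations therefore do not show how often differences of that size would be called. Positions are from GENCODE M21 and promoter windows from RefSeq. Python 3.11.15, numpy 2.4.6, pandas 2.3.3, scipy 1.17.1 and matplotlib 3.10.9 were used. Alternatives were other limits, scales, filters, pseudocounts and scalings, a block by replicate number, and leaving out each mouse.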

Additional observations from a re-analysis of the deposited data

How the results depend on the processing

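All 5 called transporters kept their direction under every alternative tried. Their calls held with wider limits on extreme frequencies (down to 0.001), on the frequency itself, with a variance trend, among genes whose mean FPKM reached 10 and with only genes beyond the coordinate limits, and 4 of the 5 held with each mouse centred on its median. Leaving out 1 mouse left 0 to 1 calls toward B6 and 0 toward MSM among the transporters, and 108 to 315 and 73 to 199 among all genes. Such a fit has 1 mouse in an arm, which is assumed to vary like the others. The limma adjusted p over all alternatives ran from 0.0172 to 0.111 for Slco1a1, from 0.0108 to 0.0821 for Slc22a7, from 0.0239 to 0.150 for Abcg5, from 0.00490 to 0.0735 for Slco2a1 and from 0.0152 to 0.139 for Abcg8. Among genes whose mean FPKM reached 10, with fewer genes tested, 521 genes were called toward B6 and 329 toward MSM. The calls of Slc16a1, Atp8b1, Hnf4a and Slc9a3r1 were lost in 4 to 6 alternatives each.

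Equal replicate numbers are not said to share a litter, batch or day. Over genes, the difference of replicate 1 from replicate 2 in MSM/B6 was set against the same difference in B6/MSM. Their correlation was 0.15 for log2 odds and 0.0038 for log2 FPKM, with only 2 pairs of mice behind it. With a replicate block, 0 transporters were called toward B6 and 1 toward MSM (Slco2a1, limma adjusted p = 0.0392), as were 481 and 294 of all genes. In expression between the crosses, 285 genes were called with the block and 4 without it, none of them a transporter. With 4 mice, the block leaves little from which to estimate the spread.

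Between the crosses, no alternative called a transporter. Over all genes, the count for allele frequency was 1 with the wider limits, 1 among genes whose mean FPKM reached 10 and 0 to 6 without a mouse, and for expression 13 to 21 without a mouse. Uncalled differences changed sign without a mouse. Those in log2 odds ran from -0.43 to 0.31 for Slco1a1, -0.025 to 0.035 for Slco1b2, -0.058 to 0.031 for Abcc2, -7.29 to 5.97 for Abcc3 and -0.17 to 0.021 for Abcg5, and Slco1b2 was at -0.0069 with each mouse centred. Those in log2 FPKM ran from -1.15 to 0.62 for Slco1a1, -0.65 to 0.078 for Slco1a4, -0.054 to 0.048 for Slc22a7, -0.33 to 0.14 for Abcc2, -0.35 to 0.053 for Abcg5 and -0.41 to 0.065 for Abcg8. The log2 odds of Abcc3 themselves ran from -2.98 to 3.65 without a mouse. The cause of these changes was not tested. At thresholds of 0.6 and 0.4, 1 transporter, Slco1a1, was past them. Mean FPKM moved by less than the spread between mice throughout. The unknown number of reads per allele limits all frequencies.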

Other observations

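Bile acid synthesis supplies substrates of these transporters, and its genes were listed after their values were seen. All 12 genes named were listed in the files, 6 had a frequency, and 4 of these were called by limma, where 36.2% of all genes were called. Since the genes were chosen with their values in view, this count supports nothing. Cyp8b1, the sterol 12-alpha-hydroxylase that sets the share of cholic acid, leaned far to MSM, with a frequency of 0.199 ± 0.0519 (SD, n = 4) and log2 odds of -2.05 ± 0.06 (SE, limma adjusted p = 0.00174), a stronger skew than that of any transporter. The SE of Cyp8b1 is taken from the spread within the crosses. Its SD also holds any difference between the crosses, which is not given here. Hsd3b7, at 0.431, and Hsd17b4, at 0.436, were also called toward MSM, and Scp2, a sterol carrier gene, at 0.535, toward B6. The frequencies of Cyp27a1 and Slc27a5 came from the region of scattered values.

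Cyp7a1, the rate-limiting enzyme of bile acid synthesis, had an FPKM of 94.0 and 93.9 in the MSM/B6 mice and 53.8 and 50.7 in the B6/MSM mice, a log2 difference of 0.83 ± 0.13 (SE). It was not called between the crosses (limma adjusted p = 0.266), and none of the 12 was, while Cyp7a1 alone had an unadjusted p under 0.05. The FPKM of the crosses did not overlap for 5 of the 12, where 42.4% of all genes did not overlap.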
